A study of Mus musculus with 4 samples.

Results

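The genes examined were the chromosome 11 neighbours of *Myh10*, genes lying close enough to it to be inherited with the mutant allele in most embryos. They were chosen by name on both sides of *Myh10*, 45 genes in all, and 44 of them were found among the 45706 genes of the count table. *Krba2* was not analysed here. Of the 44 genes, 41 averaged 5 counts or more per lung and were tested, among 18763 tested genes in all. RNA-seq was carried out on the left lobe of the lung of C57BL/6 embryos at embryonic day 17, with 2 wild-type lungs (*Myh10*+/+) and 2 lungs homozygous for the L458R allele (*Myh10*-/-), each from its own embryo. The allele is a point mutation from a screen in which C57BL/6 males were treated with the mutagen ENU and crossed with C57BL/6 females, so the flanking DNA of the mutant chromosome is of the same strain. ENU can leave further base changes on such a chromosome, and none was looked for in these data. The total count per lung was 23156026 and 19116971 in *Myh10*+/+ and 27573824 and 32055306 in *Myh10*-/-.

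Genes that lie side by side on a chromosome need not work together, and the neighbours of *Myh10* belong to many pathways. They include the tumour suppressor *Trp53*, the large subunit of RNA polymerase II, the translation initiation factor *Eif4a1*, the guidance cue *Ntn1* and several proteins of vesicle transport. Because such genes are inherited with a selected mutation, their expression can differ between genotypes through variants of their own as well as through the mutated gene.

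In the GRCm38 annotation *Myh10* (ENSMUSG00000020900) spans positions 68691559 to 68816632 of chromosome 11, on the forward strand. All 44 genes were annotated on the same chromosome, between positions 67455437 and 69801857, a stretch of 2.35 Mb. *Myh10* separated 10 of them, which lay at lower coordinates and up to 1003 kb away (called upstream here), from 34 at higher coordinates and up to 979 kb away (downstream). The residue named by the allele is encoded in exon 12 of 41 of *Myh10*, which runs from position 68765041 to 68765193. The reference coding sequence around it is shown because it is the fixed point of the linkage, with the codon of that residue in capitals, from chr11:68765139-68765191 on the forward strand. Counted from the first base of the start codon, T1373G is the single-base change that turns this codon into one for arginine.
Myh10 reference: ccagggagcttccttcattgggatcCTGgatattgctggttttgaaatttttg

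The normalised count of *Myh10*, the heavy chain of nonmuscle myosin IIB, was 505 and 504 CPM (counts scaled to a library of 1e6 reads) in the *Myh10*+/+ lungs and 539 and 513 CPM in the *Myh10*-/- lungs. Both *Myh10*-/- lungs lay just above both *Myh10*+/+ lungs. The log2 fold change of *Myh10*-/- against *Myh10*+/+ was 0.06 (SE 0.06, adjusted p = 0.662 by edgeR's quasi-likelihood test), and its 95% interval ran from −0.07 to 0.19. A missense allele still gives a transcript that is counted, so this level does not check the genotype of the lungs.

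No neighbour passed an adjusted p of 0.05 in edgeR's test in either direction. The count was 0 of 41 lower, where 1.34% of all tested genes were lower, and 0 of 41 higher, where 0.298% of all tested genes were higher. At an unadjusted p under 0.05, 3 neighbours were lower and 0 higher, against 9.02% and 7.52% of all tested genes. By DESeq2, 0 of 32 reached this level in either direction. With 1 lung left out, the neighbours at this level and their directions changed, so these counts depend on single lungs. DESeq2 gave an adjusted p for 32 of the neighbours and called 0 of them, against 2.99% of the genes for which it gave one. The *Myh10*-/- lungs lay below both *Myh10*+/+ lungs for 10 of the 41 neighbours, against 24.3% of all tested genes, and above both for 4, against 23.9%. In RNA from a whole lobe, fewer cells of a type and less RNA per cell cannot be told apart.

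The log2 fold changes of the 41 tested neighbours ran from −0.44 to 0.53, with 23 below 0 and 18 above. Their median was −0.02, beside 0.00 over all tested genes, and the median of their absolute values was 0.07, beside 0.12. With library totals, 19 neighbours were below 0 and 22 above, and the median was 0.0042. A p that misses the threshold does not show that 2 genotypes had the same level, so the 95% intervals of the differences set the bounds. The interval stayed within 1.5-fold in either direction for 34 of the 41 neighbours, where this held for 65.9% of all tested genes, and within 2-fold for 37, where this held for 80.1%. All 33 neighbours with a mean of at least 100 counts were within the 1.5-fold bound, and of the 8 with fewer counts 1 was. For the remaining 7 neighbours the interval did not exclude a difference of that size. Over all 125 tested genes within 2 Mb of *Myh10*, chosen neighbours included, the median absolute log2 fold change was 0.11. The interval stayed within 1.5-fold for 84 of these 125 genes and within 2-fold for 102 (81.6%), nearer to the shares over all tested genes.

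**Figure D1:**
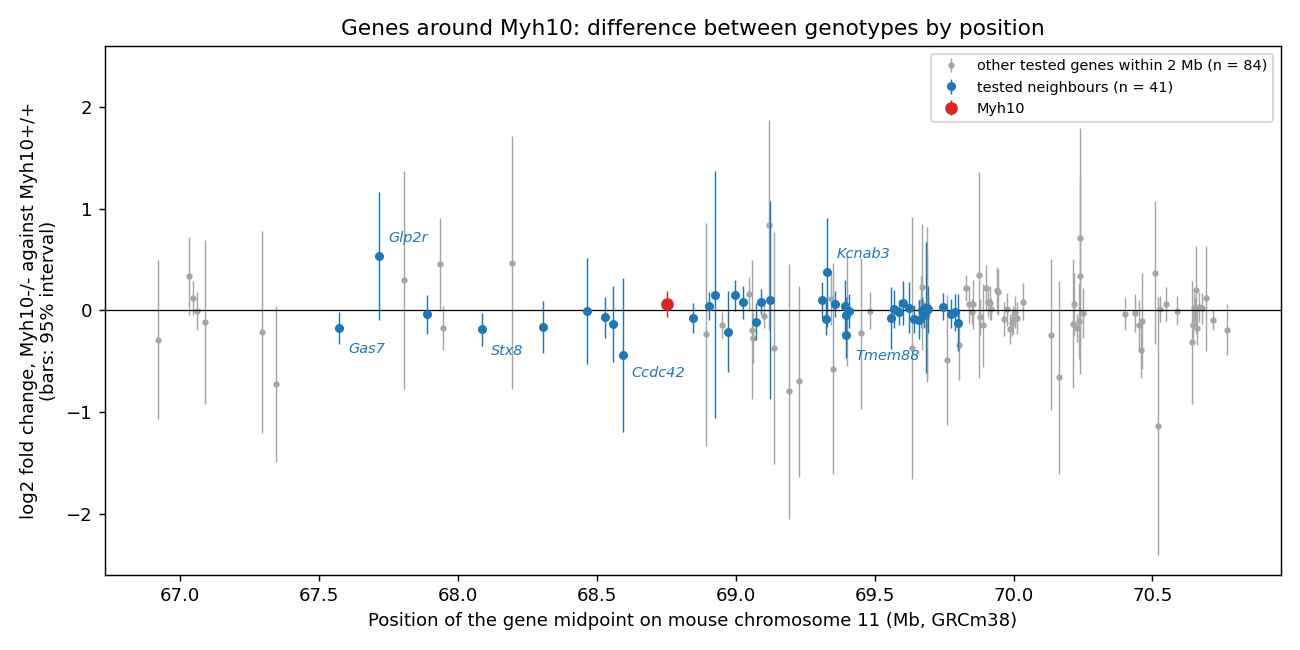
Log2 fold change of *Myh10*-/- against *Myh10*+/+ lungs (vertical axis) for the 41 tested neighbours (blue), *Myh10* (red) and the 84 other tested genes within 2 Mb (grey), by the midpoint of each gene on chromosome 11 in Mb (horizontal axis), with bars for the 95% interval. The blue points lie between −0.44 and 0.53, and the widest bars belong to genes with few counts.

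Among the neighbours that act on chromatin and transcription, *Trp53* encodes p53, which halts the cell cycle or induces cell death after DNA damage. It lay 764 kb downstream of *Myh10* and had 92.3 and 92.6 CPM in *Myh10*+/+ and 91.5 and 91.4 CPM in *Myh10*-/-. The 4 lungs were close together, the *Myh10*-/- pair lying about 1 CPM lower. The log2 fold change was −0.02 (SE 0.06, adjusted p = 0.925), with a 95% interval from −0.14 to 0.11. *Wrap53*, whose product helps telomerase to assemble, starts 103 bases from *Trp53* on the opposite strand. It had 15.2 and 16.6 CPM in *Myh10*+/+ and 15.9 and 16.2 CPM in *Myh10*-/-, and the genotypes overlapped.

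Of 25 genes that p53 is known to activate, all tested, 2 were lower and 0 higher in *Myh10*-/-, where 1.34% and 0.298% of all tested genes were, and the median log2 fold change was −0.06. At an unadjusted p under 0.05 there were 7 of the 25, and 20 of the 25 had a log2 fold change below 0, against 16.5% and 49.5% of all tested genes. The share of 16.5%, in either direction, is also the background of the counts of unadjusted p in the other lists. The 2 called genes were the cyclin-dependent kinase inhibitor *Cdkn1a* and the antiproliferative gene *Btg2*. *Cdkn1a* had 18.5 and 17.6 CPM in *Myh10*+/+ and 12.9 and 13.2 CPM in *Myh10*-/- (log2 fold change −0.47, SE 0.08, adjusted p = 0.0198). *Btg2* had 229.6 and 237.9 CPM against 181.8 and 193.3 CPM (log2 fold change −0.32, SE 0.05, adjusted p = 0.0108). Both fell with no overlap between genotypes, whereas *Trp53* itself did not pass the test. Among 7 relatives and regulators of p53, 0 passed and 4 had an unadjusted p under 0.05 (against 16.5%), all 4 with a log2 fold change above 0. Of the 7 genes, 6 had a log2 fold change above 0 and 1 below. *Mdm4*, an inhibitor of p53 and the most abundant of the 7 per kb of exon, had 386 and 368 CPM against 449 and 400.3 CPM.

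*Chd3*, a chromatin remodeller of the NuRD complex, was the most abundant of the chromatin genes, with 487 and 483 CPM in *Myh10*+/+ and 522 and 494 CPM in *Myh10*-/-. Its *Myh10*-/- values lay above both *Myh10*+/+ values. Its log2 fold change was 0.07 (SE 0.06, adjusted p = 0.613). Of 13 other NuRD subunits, 0 passed the test in edgeR or DESeq2 and 0 had an unadjusted p under 0.05, and *Rbbp7*, the most abundant per kb of exon, had 269 and 282 CPM against 279 and 285 CPM. *Kdm6b*, which removes methyl groups from lysine 27 of histone H3, had 96.8 and 92.0 CPM in *Myh10*+/+ and 102.4 and 86.3 CPM in *Myh10*-/-. The *Myh10*-/- lungs of *Kdm6b* were thus on either side of the *Myh10*+/+ lungs. Of 6 other enzymes and subunits of this histone mark, 0 passed and 1 had an unadjusted p under 0.05, with *Suz12* at 135.4 and 135.3 CPM against 142.2 and 140.5 CPM. In this list the Y-linked *Uty* had 2 and 1389 counts in *Myh10*+/+ and 2409 and 0 in *Myh10*-/-, and the X-linked *Kdm6a* had 138 and 87.0 CPM against 97.7 and 143 CPM, so both varied widely within each genotype in a test with no term for sex.

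*Polr2a*, the catalytic subunit of RNA polymerase II, had 206 and 184 CPM in *Myh10*+/+ and 207 and 194 CPM in *Myh10*-/-, with overlap. Of 12 other subunits and associated genes of the polymerase, 0 passed and 1 had an unadjusted p under 0.05, and *Polr2m* had 167 and 166 CPM against 157 and 165 CPM. *Zbtb4*, a zinc finger repressor that binds methylated DNA, had 73.0 and 70.6 CPM against 70.6 and 69.9 CPM. Before rounding, both *Myh10*-/- values of *Zbtb4* were the lower ones. *Hes7*, a repressor of the somite clock, was nearly silent, with 8 and 16 counts in *Myh10*+/+ and 18 and 19 in *Myh10*-/-. Its log2 fold change of 0.10 had a 95% interval from −0.87 to 1.07.

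Among the neighbours of translation and protein modification, *Rpl26*, a protein of the large ribosomal subunit, lay 85.0 kb downstream of *Myh10*. It had the highest level per kb of exon of all tested neighbours in *Myh10*+/+, at 232 CPM per kb. Its normalised counts were 315 and 354 CPM in *Myh10*+/+ and 330.2 and 360.1 CPM in *Myh10*-/-, and the genotypes overlapped (log2 fold change 0.05, SE 0.06, adjusted p = 0.775). *Eif4a1*, the RNA helicase of translation initiation, followed with 119 CPM per kb. It had 516 and 519 CPM in *Myh10*+/+ and 517 and 525 CPM in *Myh10*-/-, with overlap between genotypes (log2 fold change 0.01, SE 0.06, adjusted p = 0.959). Of the possible 75-base reads of these genes, 17.1% for *Rpl26* and 25.4% for *Eif4a1* also occurred in other genes, so their counts are uncertain. Of 9 relatives and partners of *Eif4a1* in initiation, 0 passed and 1 had an unadjusted p under 0.05, and *Eif4b* had 670 and 686 CPM against 661 and 650.3 CPM.

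*Fxr2*, an RNA-binding relative of the fragile X protein, had 101.7 and 112.1 CPM in *Myh10*+/+ and 102.3 and 99.4 CPM in *Myh10*-/-. The genotypes overlapped. Both other family members were tested and neither passed, 1 having an unadjusted p under 0.05, and *Fxr1* had 159.8 and 164.7 CPM against 174.7 and 164.7 CPM. *Senp3*, a protease that removes SUMO, had 111.8 and 106.1 CPM in *Myh10*+/+ and 106.4 and 104.4 CPM in *Myh10*-/-. *Usp43*, a ubiquitin protease, had 15.7 and 16.5 CPM against 14.95 and 16.4 CPM. For both proteases the genotypes overlapped. *Mpdu1*, needed to use dolichol-linked sugars in glycosylation, had 48.0 and 55.2 CPM against 46.2 and 50.7 CPM, also with overlap.

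Among the neighbours of vesicle transport, *Stx8*, a syntaxin of late endosomes, lay 484 kb upstream of *Myh10*. It had 26.8 and 28.6 CPM in *Myh10*+/+ and 23.8 and 24.9 CPM in *Myh10*-/-. Both *Myh10*-/- lungs were below both *Myh10*+/+ lungs. The log2 fold change was −0.19 (SE 0.07, adjusted p = 0.227), the lowest adjusted p among the neighbours, with a 95% interval from −0.35 to −0.03. *Vamp2*, a vesicle SNARE, had 138.6 and 144.9 CPM in *Myh10*+/+ and 157.8 and 143.2 CPM in *Myh10*-/- (log2 fold change 0.09, SE 0.06, adjusted p = 0.485). The lungs of *Vamp2* overlapped between genotypes. Of 12 tested SNARE partners, 0 passed in edgeR or DESeq2 and 5 had an unadjusted p under 0.05 (against 16.5%), with *Vamp8* at 124.5 and 128.2 CPM against 104.6 and 123.2 CPM.

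*Trappc1*, a core subunit of the TRAPP tethering complexes, had 47.1 and 48.9 CPM in *Myh10*+/+ and 46.3 and 44.4 CPM in *Myh10*-/-. The *Myh10*-/- pair was lower (log2 fold change −0.08, SE 0.07, adjusted p = 0.626, 95% interval −0.24 to 0.08). Of 13 other TRAPP subunits, 0 passed and 2 had an unadjusted p under 0.05, and *Trappc3* had 56.6 and 56.2 CPM against 57.1 and 57.7 CPM. *Cntrob*, a centriole protein that starts 204 bases from *Trappc1* on the opposite strand, had 51.6 and 49.7 CPM against 57.8 and 51.2 CPM, and the genotypes overlapped.

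Of the cytoskeletal neighbours, *Ndel1*, which joins LIS1 to the motor dynein, was the nearest of the 44 genes, 4.80 kb downstream of *Myh10*. It had 76.2 and 82.0 CPM in *Myh10*+/+ and 72.9 and 77.4 CPM in *Myh10*-/-. The 2 pairs of lungs overlapped (log2 fold change −0.07, SE 0.07, adjusted p = 0.640). Of 9 partners of *Ndel1*, 1 was higher in *Myh10*-/-, the kinetochore gene *Cenpf* (0.298% of all tested genes were higher), with 182.5 and 175.3 CPM against 223.9 and 202.6 CPM (log2 fold change 0.25, SE 0.06, adjusted p = 0.0438). *Gas7*, which binds actin filaments, lay farthest upstream and had 55.5 and 55.4 CPM in *Myh10*+/+ and 48.0 and 50.3 CPM in *Myh10*-/-. Its *Myh10*-/- lungs were both lower, by a log2 fold change of −0.17 (SE 0.07, adjusted p = 0.254), with a 95% interval from −0.33 to −0.02.

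Of the neighbours with roles in cilia and sperm tails, *Tmem107*, a protein of the ciliary transition zone, had 17.6 and 19.0 CPM in *Myh10*+/+ and 17.6 and 16.3 CPM in *Myh10*-/-. Before rounding, both *Myh10*-/- lungs were below both *Myh10*+/+ lungs. Of 12 other genes of this zone, 0 passed in edgeR or DESeq2 and 0 had an unadjusted p under 0.05, with *B9d1* at 20.2 and 21.5 CPM against 20.6 and 21.9 CPM. *Ccdc42*, a testis gene needed for sperm tails, was the nearest upstream neighbour, 93.6 kb away, and had 24 and 15 counts in *Myh10*+/+ and 18 and 23 in *Myh10*-/-. Scaled to depth these were 1.05 and 0.788 CPM against 0.647 and 0.715 CPM, with both *Myh10*-/- lungs lower. The log2 fold change of *Ccdc42* was −0.44 (SE 0.35, adjusted p = 0.572), the lowest of the neighbours, and its 95% interval ran from −1.20 to 0.32. *Odf4*, a sperm tail protein 105 kb downstream, had 6 and 4 counts in *Myh10*+/+ and 6 and 10 in *Myh10*-/-, or 0.262 and 0.210 CPM against 0.216 and 0.311 CPM. The genotypes overlapped, and with so few counts the log2 fold change of 0.16 (SE 0.56, adjusted p = 0.924) had a 95% interval from −1.06 to 1.37.

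**Figure D2:**
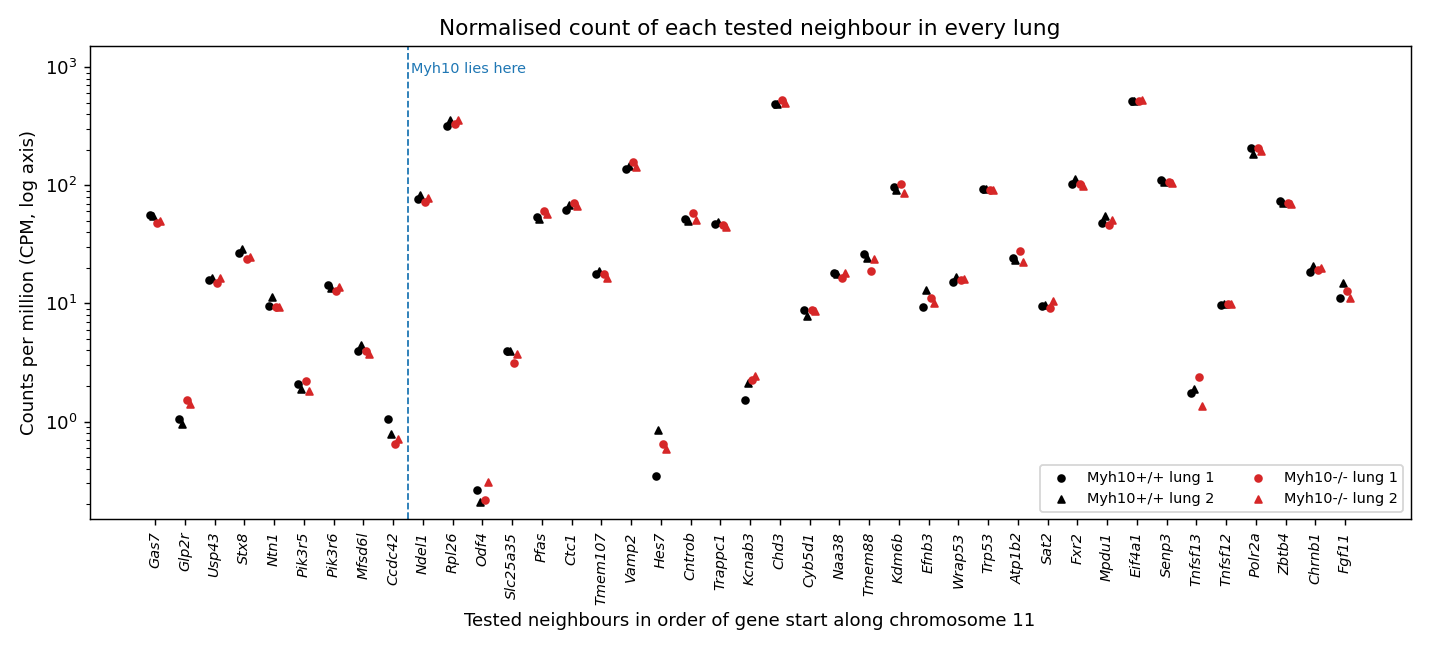
Normalised count in CPM (vertical log axis) of the 41 tested neighbours in order of their start along chromosome 11 (horizontal axis), with 1 point for each *Myh10*+/+ lung (black) and each *Myh10*-/- lung (red). The 4 points of most genes lie close together beside the spread of levels between genes, and those of *Hes7*, *Tnfsf13*, *Ccdc42*, *Glp2r* and *Kcnab3*, with few counts, lie farther apart.

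Among ligands and cell surface signals, *Ntn1*, a secreted guidance cue expressed in the developing lung, had 9.52 and 11.3 CPM in *Myh10*+/+ and 9.24 and 9.26 CPM in *Myh10*-/-. Both *Myh10*-/- values were the lower ones, and the 95% interval of the log2 fold change of −0.16 ran from −0.42 to 0.09. Of 9 tested netrins and netrin receptors, 0 passed and 2 had an unadjusted p under 0.05, and *Neo1* had 290.4 and 264.4 CPM against 255.4 and 257.9 CPM. *Efnb3*, a membrane-bound ephrin, had 9.39 and 13.0 CPM in *Myh10*+/+ and 11.1 and 10.04 CPM in *Myh10*-/-, the *Myh10*-/- lungs lying between the others. Of 7 related ephrins and receptors, 0 passed and 1 had an unadjusted p under 0.05, with *Ephb4* at 179.4 and 178.8 CPM against 181.9 and 169.4 CPM. *Fgf11*, a fibroblast growth factor homologue that stays inside the cell, had 11.2 and 14.9 CPM against 12.7 and 11.2 CPM, and the genotypes overlapped.

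*Tnfsf12* and *Tnfsf13* encode the tumour necrosis factor ligands TWEAK and APRIL. *Tnfsf12* had 9.60 and 9.98 CPM in *Myh10*+/+ and 9.85 and 9.88 CPM in *Myh10*-/-. *Tnfsf13* had 1.75 and 1.89 CPM against 2.37 and 1.37 CPM. The genotypes overlapped for both genes. A readthrough gene, *Tnfsfm13*, shares 48.3% of the exon bases of *Tnfsf12* and 60.0% of those of *Tnfsf13* on the same strand, and as the authors left out reads that overlapped several genes, both counts are uncertain. Of 5 genes for receptors of these ligands and the related ligand *Tnfsf13b*, 3 were tested (*Tnfrsf12a*, *Tnfrsf13b* and *Tnfsf13b*), 0 passed in edgeR or DESeq2 and 0 had an unadjusted p under 0.05, with *Tnfrsf12a* at 7.42 and 5.15 CPM against 6.18 and 5.69 CPM.

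*Tmem88*, an inhibitor of Wnt signalling that binds Dishevelled, had 26.0 and 24.4 CPM in *Myh10*+/+ and 18.7 and 23.8 CPM in *Myh10*-/-. One *Myh10*-/- lung was well below the other 3, and the second was just below the *Myh10*+/+ lungs. For *Tmem88* the log2 fold change was −0.24 (SE 0.10, adjusted p = 0.264), with a 95% interval from −0.47 to −0.02. Without the second *Myh10*-/- lung, *Tmem88* alone among the neighbours passed the test, at a log2 fold change of −0.43 and an adjusted p of 0.00472, and without the first it was at −0.08 with an adjusted p of 0.866, so its difference rested on 1 lung. Over the 4 fits that leave out 1 lung, the lowest adjusted p of any neighbour ran from 0.00472 to 0.439. In the fit without the second *Myh10*-/- lung 1643 genes were called in all, against 308 with the 4 lungs.

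*Pik3r5* and *Pik3r6* encode adaptor subunits of the PI3-kinase that is activated by G-protein-coupled receptors. *Pik3r6* lay 139 kb upstream of *Myh10* and had 14.2 and 13.5 CPM in *Myh10*+/+ and 12.8 and 13.7 CPM in *Myh10*-/-, with overlap between genotypes (log2 fold change −0.07, SE 0.09, adjusted p = 0.772). *Pik3r5* had 2.10 and 1.89 CPM against 2.19 and 1.80 CPM, the *Myh10*-/- lungs lying on either side of the *Myh10*+/+ lungs. Of 7 other class I PI3-kinase subunits, 0 passed and 3 had an unadjusted p under 0.05 (against 16.5%), and *Pik3r3* had 91.9 and 91.8 CPM against 86.1 and 90.8 CPM. *Glp2r*, the receptor of the gut hormone glucagon-like peptide-2, had 24 and 18 counts in *Myh10*+/+ and 42 and 45 in *Myh10*-/-, or 1.05 and 0.945 CPM against 1.51 and 1.40 CPM. In both genotypes the lungs were close, and the *Myh10*-/- pair was higher. The log2 fold change of *Glp2r*, 0.53 (SE 0.29, adjusted p = 0.381), was the highest of the neighbours, and its 95% interval from −0.09 to 1.16 included 0.

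Of the channels, pumps and carriers, *Chrnb1*, a subunit of the muscle acetylcholine receptor, had 18.6 and 20.9 CPM in *Myh10*+/+ and 19.0 and 19.8 CPM in *Myh10*-/-, and the genotypes overlapped. Of 6 genes that form or cluster this receptor with it, 2 were tested, 0 passed in edgeR or DESeq2 and 0 had an unadjusted p under 0.05, with *Rapsn* at 0.480 and 0.420 CPM against 0.647 and 0.777 CPM. *Kcnab3*, an auxiliary subunit of potassium channels, had 35 and 40 counts in *Myh10*+/+ and 62 and 78 in *Myh10*-/-, or 1.53 and 2.10 CPM against 2.23 and 2.42 CPM. Its *Myh10*-/- lungs were the higher ones, by a gap smaller than that between the *Myh10*+/+ lungs. This gave a log2 fold change of 0.38 (SE 0.25, adjusted p = 0.481), with a 95% interval from −0.16 to 0.91. *Atp1b2*, a beta subunit of the sodium pump, had 24.4 and 23.5 CPM in *Myh10*+/+ and 28.0 and 22.4 CPM in *Myh10*-/-, on either side of the *Myh10*+/+ lungs. *Mfsd6l*, which resembles membrane transporters, lay 133 kb upstream and had 3.97 and 4.46 CPM against 3.99 and 3.70 CPM, with overlap (log2 fold change −0.13, SE 0.17, adjusted p = 0.759).

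Of the enzymes and telomere proteins, *Pfas* carries out a step of purine synthesis and had 54.1 and 52.0 CPM in *Myh10*+/+ and 60.2 and 57.5 CPM in *Myh10*-/-. Both *Myh10*-/- lungs lay above both *Myh10*+/+ lungs, and the 95% interval of the log2 fold change of 0.15 ran from −0.01 to 0.30 (adjusted p = 0.328). Of 10 other genes of purine synthesis, 1 was lower in *Myh10*-/-, *Impdh1* (1.34% of all tested genes were lower), and 2 had an unadjusted p under 0.05. *Impdh1* had 50.6 and 46.7 CPM against 32.7 and 37.4 CPM (log2 fold change −0.47, SE 0.09, adjusted p = 0.0199). *Sat2*, a relative of the polyamine acetyltransferase, had 9.47 and 9.77 CPM in *Myh10*+/+ and 9.06 and 10.5 CPM in *Myh10*-/-. *Ctc1*, a subunit of the telomere-capping CST complex, had 61.8 and 67.6 CPM against 70.6 and 66.2 CPM. The genotypes overlapped for both. Of 9 tested genes of CST and telomerase, 0 passed and 2 had an unadjusted p under 0.05, with *Nop10* at 40.4 and 38.3 CPM against 42.0 and 42.9 CPM.

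Several neighbours overlap each other or another gene, which bears on their counts because reads over several genes were left out and the use of strand in counting was not stated. *Rangrf*, a regulator of the GTPase Ran, has 90.7% of its exon bases under exons of *Slc25a35* on the opposite strand. It had 1 and 1 counts in *Myh10*+/+ and 2 and 0 in *Myh10*-/- and was not tested. *Slc25a35*, a mitochondrial carrier with 31.3% of its exon bases in that overlap, had 91 and 76 counts in *Myh10*+/+ and 87 and 120 in *Myh10*-/-, or 3.97 and 3.99 CPM against 3.13 and 3.73 CPM. Both *Myh10*-/- lungs were lower in CPM, with a log2 fold change of −0.21 (SE 0.18, adjusted p = 0.611) and a 95% interval from −0.61 to 0.19. *Naa38*, a subunit of the NatC acetyltransferase, overlaps *Cyb5d1* and *Tmem88* on the opposite strand over 34.4% of its exon bases. It had 18.1 and 17.6 CPM in *Myh10*+/+ and 16.4 and 18.1 CPM in *Myh10*-/-. *Cyb5d1*, which has a cytochrome b5 domain, had 8.86 and 7.88 CPM against 8.74 and 8.61 CPM. Neither separated the genotypes, and of both other NatC subunits neither passed in edgeR or DESeq2 and 0 had an unadjusted p under 0.05, with *Naa30* at 74.6 and 76.5 CPM against 82.7 and 77.2 CPM. Of the possible 75-base reads, 71.9% for *Rangrf*, 31.6% for *Cyb5d1*, 22.3% for *Slc25a35* and 17.3% for *Naa38* also occurred in other genes, so these counts are uncertain too. In all, 16 of the 44 genes shared exon bases with another gene and 13 did so with a gene of the opposite strand, and for 9 more than 10% of the possible 75-base reads occurred in other genes.

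The remaining genes were at or near 0 in all 4 lungs. *Rcvrn*, the calcium sensor recoverin of photoreceptors, had 2 and 1 counts in *Myh10*+/+ and 1 and 0 in *Myh10*-/-. *Shbg*, the carrier of sex hormones in blood, had 0 counts in each of the 4 lungs. Neither was tested.

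Per kb of exon, the levels of the tested neighbours in *Myh10*+/+ ran from 0.171 CPM per kb for *Glp2r* to 232 for *Rpl26*, with a median of 6.76, beside 4.54 over all tested genes. After *Rpl26* and *Eif4a1* the highest levels per kb were those of *Chd3* (57.4), *Trappc1* (43.2) and *Vamp2* (37.2). *Myh10* itself stood at 48.3 CPM per kb, between *Chd3* and *Trappc1*.

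By position, 8 of the 9 tested upstream neighbours had a log2 fold change below 0, with *Glp2r* as the exception, and their median was −0.13. With library totals, with the replicate block, or without either *Myh10*-/- lung or the first *Myh10*+/+ lung, 7 of the 9 were below 0, and of all tested genes 49.5% were. Of the 4 other tested genes on this stretch 1 was below 0 and 3 were above, and of the 32 tested downstream neighbours 15 were below 0 and 17 above, with a median of 0.01. The split by side was made after the values had been seen, and its difference was not tested.

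To see whether the chosen neighbours missed any called gene, every gene within 2 Mb of either end of *Myh10* was taken, 125 tested genes with the 41 neighbours among them. In edgeR's test 0 of the 125 passed an adjusted p of 0.05, against 1.64% of all tested genes, and DESeq2 called 0 of the 77 for which it gave an adjusted p, against 2.99%. At an unadjusted p under 0.05, 9 were lower and 2 higher, against 9.02% and 7.52% of all tested genes. The lowest adjusted p in this stretch, 0.0855, was that of *Nlgn2*, a synaptic adhesion gene named after its values were seen, with 98.3 and 107.0 CPM in *Myh10*+/+ and 121.3 and 117.6 CPM in *Myh10*-/- (log2 fold change 0.22, SE 0.06, edgeR). Without the second *Myh10*-/- lung 4 genes of the stretch passed, *Tmem88*, *Nlgn2*, *Bcl6b* and *Gabarap*.

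By distance from *Myh10*, 0 of 27 tested genes within 0.5 Mb, 0 of 39 at 0.5 to 1 Mb, 0 of 59 at 1 to 2 Mb and 0 of 59 at 2 to 5 Mb passed in edgeR, and DESeq2 called 0 in each. Of these genes 3, 1, 7 and 7 had an unadjusted p under 0.05, against 16.5% of all tested genes. At 5 to 10 Mb, 2 of 213 genes passed, both lower. They were *Myo1c*, 6834 kb downstream, with 402 and 379 CPM against 309 and 335 CPM (adjusted p = 0.0330, edgeR), and *Srebf1*, 8469 kb upstream, with 128.3 and 130.3 CPM against 99.6 and 110.3 CPM (adjusted p = 0.0293, edgeR). On the rest of chromosome 11, 27 of 1135 genes passed (2.38%), and on the other autosomes 1.63% did. Over chromosome 11 as a whole 1.89% of 1532 tested genes passed, within the range of single chromosomes, from 0.92% on chromosome 13 to 2.71% on chromosome 17. The median absolute log2 fold change was 0.16 within 0.5 Mb and 0.07 at 0.5 to 1 Mb, beside 0.12 on the other autosomes. The value within 0.5 Mb was that of *Odf4*, a gene with few counts, and other genes of this stretch also had few.

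Over the 19 lists of genes that act with a neighbour, 169 genes were tested, of which 3 were lower and 1 higher, 33 had an unadjusted p under 0.05, and DESeq2 called 4. These are 2.37% called and 19.5% at an unadjusted p under 0.05, beside 1.64% and 16.5% of all tested genes. In the 16 lists with 0 calls in edgeR, DESeq2 also called 0 genes. Markers of lung were abundant, with *Sftpc*, the surfactant protein of alveolar type 2 cells, at 5815 and 5630.3 CPM in *Myh10*+/+ and 3876 and 4750.3 CPM in *Myh10*-/-, a difference that did not pass (adjusted p = 0.173 by edgeR, 0.118 by DESeq2). Of 7 markers of lung epithelium 4 were lower in *Myh10*-/- (*Cdh1*, *Ager*, *Sftpb* and *Hopx*), of which DESeq2 did not call *Hopx*, while *Nkx2-1* (log2 fold change 0.02) and *Epcam* (−0.04) did not pass either. With *Sftpc* as its most abundant gene, the list summed to 8607 and 8394 CPM against 5975 and 7009 CPM. Of 5 tested cardiac muscle markers 4 were lower and DESeq2 called all 5 (led by *Myl7*, with a sum of 206.8 and 267.1 CPM against 166.2 and 151.9 CPM), of 6 erythroid markers 1 (*Alas2*) and of 6 tested leukocyte markers 1 (*Lyz2*), beside 1.34% of all tested genes. DESeq2 called neither *Alas2* (adjusted p = 0.153) nor *Lyz2* (adjusted p = 0.177), and in the erythroid list it called *Slc4a1* (adjusted p = 0.0356). Of 6 mesenchymal markers, led by *Acta2*, and 4 endothelial markers, led by *Cdh5*, 0 passed in edgeR or DESeq2, and 1 and 2 had an unadjusted p under 0.05. Markers of skeletal muscle (*Mylpf*) and neurons (*Stmn2*) had 0 calls in edgeR and DESeq2 and 1 unadjusted p under 0.05 each. Those of testis germ cells (*Acr*), in which *Odf4* and *Ccdc42* are known to be active, summed to under 2 CPM in each lung and had 0 calls in edgeR and DESeq2 and 0 at an unadjusted p under 0.05. The part of these shifts in the values of the neighbours was not tested.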

How the data were processed

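The data are raw counts of reads per gene, as deposited by the authors, for 4 left lung lobes at embryonic day 17. Per the submitters' notes and the study's methods, 75-base reads of stranded libraries were aligned to GRCm38 with STAR 2.4.0a and counted over exons with featureCounts 1.5.1, and reads over several genes or sites were left out. Whether counting used strand was not stated. Counts were tested with edgeR 4.0.16 in R 4.3.3 (TMM, quasi-likelihood, two-sided) on genes averaging 5 counts or more per lung, with Benjamini-Hochberg adjustment over all 18763, and with DESeq2 1.42.0 as an alternative. The test was tried on simulated counts first. CPM use TMM-scaled totals. Positions, exons and the printed sequence come from GENCODE M21. The members and lists were chosen with earlier results of these data known. Genes named with full statistics were *Myh10*, *Trp53*, neighbours with an unadjusted p under 0.05 and the 3 nearest tested on each side. So were the neighbours with the 5 largest log2 fold changes or the 5 highest levels per kb in *Myh10*+/+. Of each list of genes that act with a neighbour, those with an adjusted p under 0.05 were named, or else the most abundant per kb. For the marker lists, counts of calls and only some of the genes were given. The result of 1 marker list is not reported here. With 2 lungs per genotype, the spread between embryos limits the precision.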

Additional observations from a re-analysis of the deposited data

How the results depend on the processing

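The counts of 0 neighbours called lower and 0 called higher held under DESeq2's size factors, library totals, no filter on low counts, edgeR's filterByExpr, robust dispersion, DESeq2, the replicate block and an adjusted p under 0.1. With 1 lung left out, the lone lung of a genotype being assumed to vary like the others, the count lower ran from 0 to 1 and the count within 2 Mb from 0 to 4, both highest without the second *Myh10*-/- lung; the cause was not tested. Within 2 Mb 1 gene (*Nlgn2*) was called with no filter and 1 at an adjusted p under 0.1, and within 1 Mb or 5 Mb 0 were. With the replicate block 0 neighbours were called and the log2 fold change of *Myh10* was 0.06. Same-numbered lungs deviated in opposite directions (correlation −0.297 over 18763 genes). Such a correlation from 2 lungs per genotype cannot show whether the numbers pair the lungs. Same-numbered lungs also differed in counts of *Uty*. A block of crossed numbers, added after seeing the data, also called 0 neighbours. That block called 415 genes in all, against 710 with the replicate block and 308 without a block. The median log2 fold change of the neighbours ran from −0.029 to 0.0042 over the alternatives, and was above 0 only with library totals. With 1 lung left out, the log2 fold change ran from 0.026 to 0.098 for *Myh10*, 0.15 to 0.61 for *Kcnab3*, −0.62 to −0.21 for *Ccdc42*, −0.35 to −0.092 for *Slc25a35*, −0.22 to −0.050 for *Mfsd6l*, −0.13 to −0.020 for *Ndel1*, −0.12 to −0.017 for *Pik3r6*, −0.11 to −0.050 for *Trappc1*, 0.019 to 0.16 for *Vamp2* and 0.028 to 0.11 for *Chd3*, none called. That of *Tmem88* ran from −0.43, which was called, to −0.079. Sign changes among the neighbours given in full were *Trp53* with library totals (0.0042), and, with 1 lung left out, *Eif4a1* (−0.00064 to 0.024), *Odf4* (−0.14 to 0.38) and *Rpl26* (−0.035 to 0.13). None of the values with a changed sign was called. The crossed numbers join the lungs that were alike in counts of the Y-linked *Uty* (2 and 0, 1389 and 2409), so that block is also one by sex-linked expression. Depth limits the neighbours with fewest counts.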
